A study of Mus musculus with 2 samples.

Results

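The Slc1a genes encode a family of sodium-coupled transporters with 2 branches, the excitatory amino acid transporters, which carry glutamate and aspartate, and the ASC transporters, which exchange neutral amino acids such as serine, alanine and glutamine. In the brain the glutamate branch clears transmitter from around synapses, and most of that uptake is known to be astrocytic. The family was described here by the 6 genes Slc1a1, Slc1a2, Slc1a3, Slc1a4, Slc1a5 and Slc1a6, taken by gene name from the authors' list of C-to-U sites. Of these 6 genes, 3 had a site (Slc1a2, Slc1a3 and Slc1a4), and together they held 81 of the 17755 sites and 3 of the 6929 genes in the list.

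The list came from 2 libraries of 1 group: cortical nuclei from mice that were labelled with an antibody to NeuN, a protein of neuronal nuclei made from Rbfox3, and then flow sorted. The mice had the genotype APOBEC1-YTH, a fusion of a cytidine deaminase to the YTH domain that binds N6-methyladenosine (m6A), so that cytidines near m6A are changed to uridines. All animals received tamoxifen (20 mg/kg every 24 hours for 5 days from an age of 10 weeks) and tissue was taken 7 days later; the labels do not name the promoter of the transgene or say how many animals went into a library, and no group without the fusion was analysed here. Each site has 1 editing level, the percentage of reads with the conversion, for both libraries together, so no spread between libraries can be given and every SD below is across sites of a gene. The list holds no level under 1%. Depth is unknown from the table, and since a low level can be listed only where many reads cover the base, levels and site counts of different genes do not rest on equal coverage.

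One sequence is shown, that of the site at the 5′ end of Slc1a4, because it stood apart from the gene's other sites. It lay on chromosome 11 at position 20332698 (minus strand, GRCm38.p6, the assembly that mm10 names), base 16 of the transcript counted from the RefSeq start. The 29 bases from 20332684 to 20332712, read 5′ to 3′ on the transcript strand from RefSeq with the edited cytidine in capitals, were as follows.
Slc1a4 5′ site: tcatctccagcctgCagcggctctgaaag
The base before the edited C was a G. Neither GAC nor AAC, the core of the m6A consensus, occurred on the transcript strand within the first 50 bases of this transcript, whereas 68.6% of all 32817 RefSeq start windows, edited or not, held at least one of them there. Bases further downstream were not searched, and whether m6A lay near this site was not tested. As a check of the coordinates, all 142 listed sites that fell in a RefSeq promoter window of their own gene had a C at the listed position.

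The glial glutamate transporter genes carried most of the family's sites. Slc1a2 encodes GLT-1 (EAAT2), the main glutamate transporter of astrocytes, and spans 132546 bp on the plus strand of chromosome 2 (102658239 to 102790784). It had 38 sites, the third highest count of any gene in the list. With sites of at least 2% alone it had 9 sites and ranked 68, a place shared by 27 genes. Its median editing level was 1.43%, with a mean of 1.83% ± 1.66 (SD across n = 38 sites) and a range of 1.04% to 11.3%. Slc1a3 encodes GLAST (EAAT1), the other main astrocytic glutamate transporter, and spans 76684 bp on the minus strand of chromosome 15 (8634124 to 8710807). It had 23 sites with a median of 1.47%, a mean of 1.80% ± 0.70 (SD across n = 23 sites) and a range of 1.07% to 3.29%. Both genes were thus listed mainly near the minimum of the list: 20 of the 38 Slc1a2 sites and 12 of the 23 Slc1a3 sites lay below 1.5%, against 13.4% of all sites.

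In the neutral amino acid branch, Slc1a4 encodes ASCT1, a serine and alanine exchanger, and spans 30534 bp on the minus strand of chromosome 11 (20302180 to 20332713). It had 20 sites with a median of 1.94%, a mean of 3.63% ± 5.02 (SD across n = 20 sites) and a range of 1.03% to 22.8%. Of its 20 sites 11 lay below 2%, against 24.6% of all sites in the list, and 3 reached 5%, against 37.2% of all sites. Slc1a5, which encodes the glutamine exchanger ASCT2 (chromosome 7, 16781334 to 16798274), had 0 sites.

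The glutamate transporter genes other than Slc1a2 and Slc1a3 were without sites. Slc1a1 encodes EAAC1 (EAAT3), the transporter of neuronal cell bodies and dendrites, spans 78826 bp on chromosome 19 (28835135 to 28913960) and had 0 sites. Slc1a6 encodes EAAT4, best known from cerebellar Purkinje cells, spans 34740 bp on chromosome 10 (78780086 to 78814825) and had 0 sites. Slc1a7, the remaining family gene (EAAT5, known from retina), also had 0 sites. No site of any other gene name lay inside the spans of Slc1a1, Slc1a5 or Slc1a6. A gene with 0 listed sites may have had little RNA sequenced, little m6A, or editing below 1%, and these cannot be told apart in this list. Over the family, 3 of 6 genes with a site compares with 28.3% of the 21900 protein-coding genes in the RefSeq table. That share counts genes expressed in cortex or not, and a difference from it was not tested over only 6 genes.

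**Figure D1:**
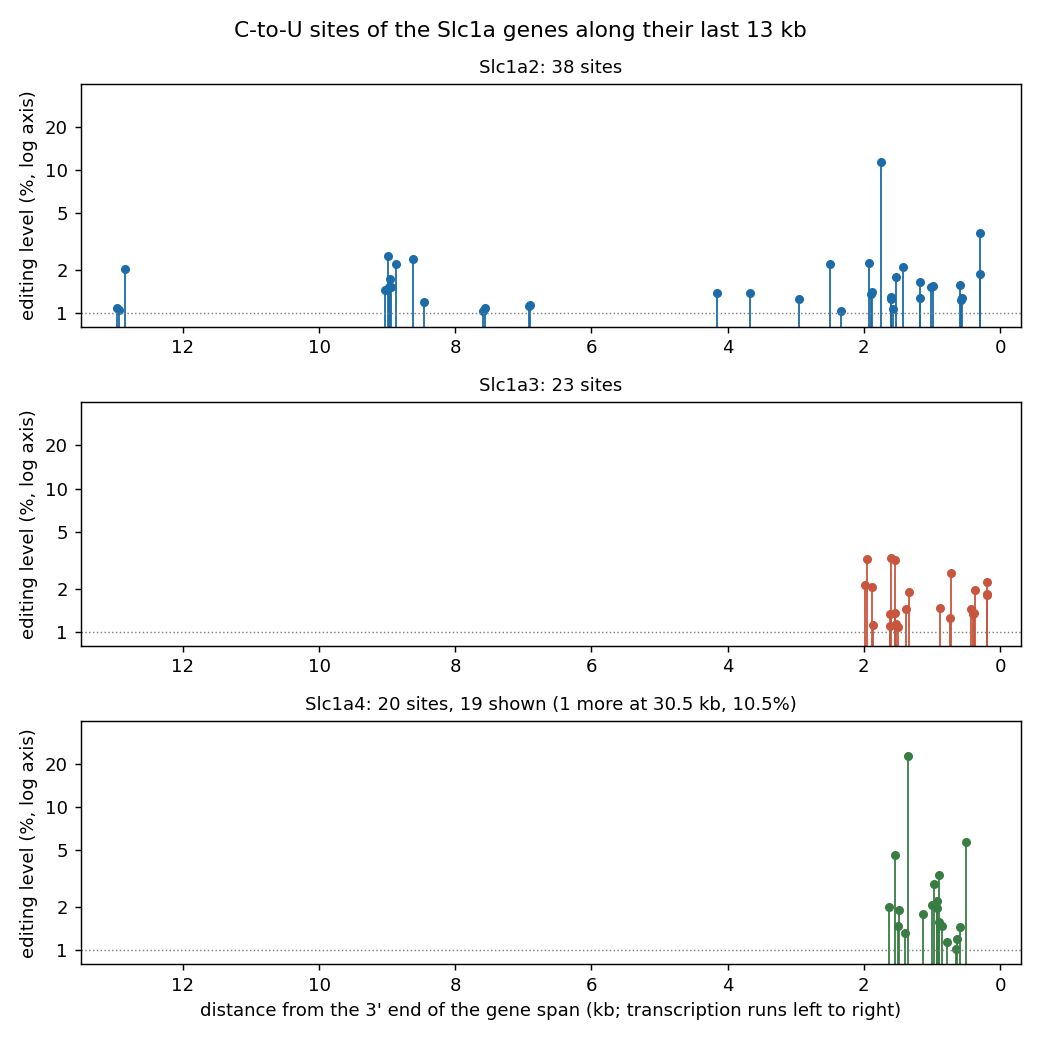
Editing level (%, log axis) of each site against its distance from the 3′ end of the gene span (kb) for Slc1a2, Slc1a3 and Slc1a4; each point is 1 site and the dotted line marks the 1% minimum of the list. Slc1a3 and Slc1a4 sites lie within the last 2 kb apart from the Slc1a4 site at 30.5 kb, whereas Slc1a2 sites form 3 runs, the farthest of them 12852 to 12973 nt from the end.

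The plot of sites along the 3′ ends shows how differently the sites were arranged in the genes. All 23 Slc1a3 sites lay between 186 and 1988 nt from the 3′ end of the span, in 1 run with no gap above 456 nt. The whole set fell in the last 2.59% of the span, introns included. Slc1a4 had 19 sites between 507 and 1631 nt from the end, and then 1 site 28887 nt further upstream, the one at base 16 of the transcript. The Slc1a2 sites formed 3 runs separated by gaps above 1000 nt: 23 sites from 292 to 4156 nt, 12 sites from 6895 to 9030 nt and 3 sites from 12852 to 12973 nt from the end. The median levels of these runs were 1.41%, 1.48% and 1.09%, and their ranges overlapped. All 38 sites lay in the last 9.79% of the span, and the rest of the gene had 0 listed sites.

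In the last 5 kb of their spans the members had 65 of their 81 sites (80.2%), against 49.7% of the 16865 sites of all genes that lie inside a span. Other Slc genes had 64.3% of their 263 sites in the last 5 kb. The other genes with at least 20 sites had 61.1% of their 630 sites there. The shares of these other groups, here and within 2 kb, are over all their listed sites. They are not limited to sites inside a span, so a site past the 3′ end counts as within the window. Within 2 kb the shares were 74.1% for the members and 29.9% for all genes. They were 44.9% for other Slc genes and 29.7% for the other genes with at least 20 sites. By gene, the last 5 kb held 23 of 38 sites in Slc1a2, 23 of 23 in Slc1a3 and 19 of 20 in Slc1a4. This is 4.6, 4.6 and 3.8 sites per kb in that order of genes. The stretch makes up 3.77% of the Slc1a2 span, 6.52% of the Slc1a3 span and 16.4% of the Slc1a4 span, introns included. Its share of the transcript without introns was not worked out. Of the 197 genes with at least 10 sites inside their span, 84 had a higher share in the last 5 kb than Slc1a2. All sites lay there in 32 of the 197, Slc1a3 among them. The gene table gives spans without exons, so the sites were not assigned to the 3′ untranslated region or the coding sequence. No other RefSeq gene span overlapped Slc1a3 or Slc1a4. The spans of LOC115489466 and Gm13872 overlap Slc1a2, but both end upstream of its first site at 102777811. A single site listed under another name, Gm37310, lay inside the Slc1a3 span, at position 8654385 on the same strand and at 2.06%.

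In Slc1a4 and Slc1a2 most levels were alike and 1 or 2 sites stood far above the rest. In Slc1a4 the highest site, at position 20303528 and 1348 nt from the 3′ end, was edited at 22.8%. It was 11.7 times the gene's median and ranked 133 among all 17755 sites. The site at base 16 of the transcript followed with 10.5%, then 5.71% at 507 nt, 4.65% at 1545 nt and 3.36% at 896 nt from the 3′ end. The level of the site at base 16, 10.53%, was also listed for 200 sites of other genes. Whether it rests on few reads was not tested, since depth is unknown. In Slc1a2 the highest site, at position 102789041 and 1743 nt from the end, was edited at 11.3%, 7.90 times the median. The next 4 were far lower, with 3.60% at 300 nt, 2.49% at 8991 nt, 2.39% at 8614 nt and 2.25% at 1924 nt from the end. In Slc1a3 no site stood apart: the 5 highest were 3.29% at 1604 nt, 3.23% at 1961 nt, 3.18% at 1543 nt, 2.59% at 725 nt and 2.21% at 195 nt from the end, and the highest was 2.24 times the median. Of all members' sites 3 reached 10%, against 14.9% of all sites in the list.

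**Figure D2:**
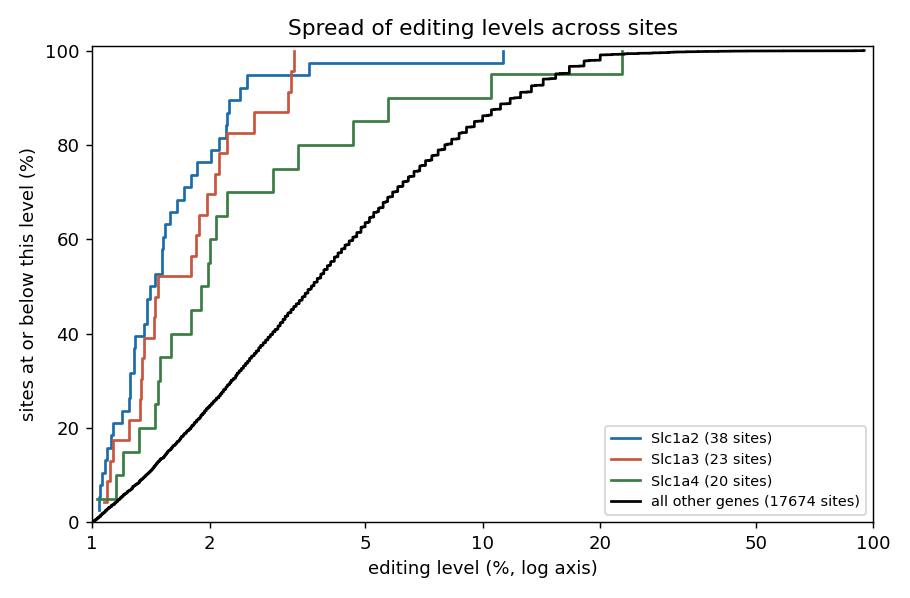
Cumulative share of sites (%) against editing level (%, log axis) for Slc1a2, Slc1a3, Slc1a4 and all other genes. The Slc1a2 and Slc1a3 curves run furthest to the left, with medians of 1.43% and 1.47%, Slc1a4 follows with 1.94% and a tail to 22.8%, and the other genes have a median of 3.64%.

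The cumulative plot sets these levels beside the rest of the list. Over the 81 sites of the members the median was 1.51% (quartiles 1.28% and 2.11%), against 3.64% (2.02% and 6.90%) over the 17674 sites of all other genes. The 23 other genes with at least 20 sites had a median of 2.41% over 630 sites. All 3 members with a site belonged to the 26 genes with at least 20 sites, which are 0.375% of the genes in the list. That place rests on sites near the 1% minimum. With sites of at least 2% alone, Slc1a2 and Slc1a4 (9 sites each) ranked 68 by site count, shared by 27 genes. Slc1a3 (7 sites) ranked 142, shared by 78 genes. Among these 26 genes Slc1a2 had the lowest median level, Slc1a3 the second lowest and Slc1a4 the twelfth lowest. Whether these ranks follow from deeper coverage of Slc1a2 and Slc1a3 was not tested, since the table has 0 columns of coverage.

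**Figure D3:**
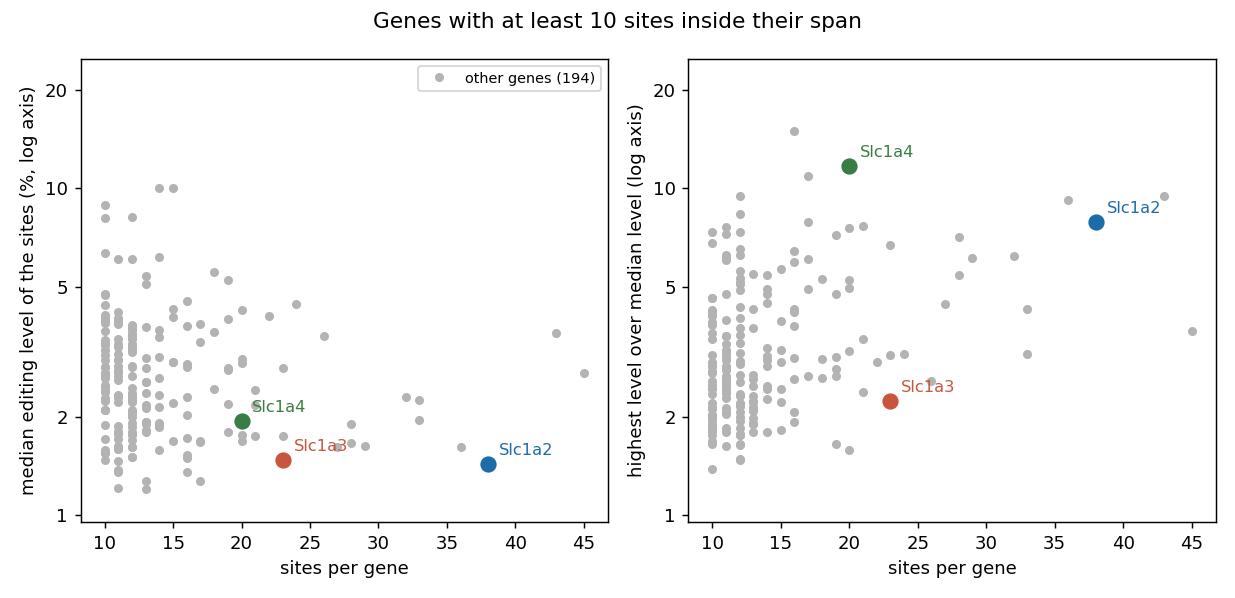
Median editing level (%, left, log axis) and highest level over median level (right, log axis) against sites per gene, for the 197 genes with at least 10 sites inside their span; each point is 1 gene. Slc1a2 and Slc1a3 lie near the lower edge on the left, while Slc1a4 (11.7) and Slc1a2 (7.90) lie high and Slc1a3 (2.24) low on the right.

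The plots of genes with at least 10 sites give the same quantities for 197 genes. A lower median level than that of Slc1a2 was found in 7 of them, than that of Slc1a3 in 9 and than that of Slc1a4 in 58; the middle gene had 2.50%. The ratio of the highest to the median level was exceeded by 1 gene for Slc1a4, by 7 genes for Slc1a2 and by 140 genes for Slc1a3, and its median over the genes was 2.86. The members thus differed in how far their highest site stood above their median.

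Sites of the members were closely packed when all listed levels were counted. The median gap between neighbouring sites was 25 nt in Slc1a3, 48 nt in Slc1a4 and 89 nt in Slc1a2, against a median of 317 nt over the 197 genes, and 3 genes had a shorter median gap than Slc1a3. Another site of the same gene lay within 100 nt of 22 of 23 Slc1a3 sites, 18 of 20 Slc1a4 sites and 30 of 38 Slc1a2 sites. Together this was 86.4% of the members' sites, against 22.8% of all sites in the list and 62.1% of those in the other genes with at least 20 sites. Over sites of at least 2% the share was 44% of 25 sites for the members, against 17.5% of all sites and 58.0% of those in the same other genes, so the order against genes with many sites turned round. The densest 200 nt of Slc1a3 held 7 sites, 1505 to 1616 nt from the end, at 1.07% to 3.29%. Slc1a4 had 7 sites within 200 nt in 2 overlapping stretches, 781 to 966 nt from the end at 1.15% to 3.36% and 859 to 1001 nt from the end at 1.49% to 3.36%. In Slc1a2 the densest 200 nt lay away from the 3′ end, with 6 sites 8869 to 9030 nt upstream of it at 1.45% to 2.49%.

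Sites a few bases apart did not always share a level. In Slc1a3 the sites 1604 and 1609 nt from the end, 5 nt apart, were edited at 3.29% and 1.09%, and the sites 1543 and 1547 nt from the end, 4 nt apart, at 3.18% and 1.36%. In Slc1a4 the sites 924 and 927 nt from the end, 3 nt apart, had 2.22% and 1.98%, and in Slc1a2 the sites 1170 and 1172 nt from the end, 2 nt apart, had 1.28% and 1.65%. Over the 12 neighbouring pairs at most 10 nt apart the higher level was a median of 1.26 times the lower (range 1.03 to 3.02), against 1.30 times (range 1.0 to 17.3) over the 66 pairs further apart. The 3 sites of at least 10% had their nearest neighbour at 50 nt (the 22.8% site of Slc1a4), 133 nt (the 11.3% site of Slc1a2) and 28887 nt (the 5′ site of Slc1a4), while the other 78 sites had theirs at a median of 20.0 nt. In the other genes with at least 20 sites the corresponding medians were 55.5 nt for 24 sites of at least 10% and 45.0 nt for 606 sites below it. Level showed no clear order along the last 5 kb: Spearman's rho between level and distance from the end was -0.15 in Slc1a2 (n = 23 sites), 0.016 in Slc1a3 (n = 23 sites) and 0.30 in Slc1a4 (n = 19 sites), as descriptions over sites that share their libraries.

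The genes most like the 2 glial transporters were found by site count, median level, share of sites in the last 5 kb and median gap, as the distance over these 4 standardised values among the 197 genes. Nearest to Slc1a3 was another member, Slc1a4 (distance 0.91, with 20 sites), followed by Paqr8 (28 sites, median 1.90%), the myelin gene Mal (1.14), Sema6d (1.20) and the astrocytic connexin gene Gja1 (1.34), where the median distance of all genes was 3.48. Nearest to Slc1a2 was Kcnj10, the inwardly rectifying potassium channel of astrocytes (distance 1.22, 36 sites, median 1.62%), followed by Ank2 (1.54), Gja1 (1.55), Paqr8 (1.64) and Lrrc58 (1.69), with a median distance of 4.23 over all genes. Of the Slc1a2 sites 60.5% lay in the last 5 kb, against all 36 sites of Kcnj10.

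Among solute carriers the members with sites came first when all listed levels were counted. The list held 344 sites in 112 genes named Slc, and Slc1a2, Slc1a3 and Slc1a4 had the 3 highest counts, 23.5% of these sites. The next were Slc7a11, the cystine-glutamate exchanger, with 16 sites and Slc4a4, a sodium bicarbonate cotransporter, with 13. With sites of at least 2% alone, Slc1a2, Slc1a3 and Slc1a4 kept 9, 7 and 9 sites. The order among solute carriers was not worked out at that minimum. Slc7a11 had a median level of 2.9%, and Slc49a4, with 9 sites, one of 5.88%. The members' sites had a median level of 1.51%, against 4.08% for the 263 sites of the other Slc genes.

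Genes that work with the transporters carried sites in part. Of the 16 genes of the glutamate and glutamine cycle analysed here, which are not the whole pathway, 9 had a site (56.2%), with 43 sites in all. They were led by Slc7a11 (mean 3.28% ± 1.39, SD across 16 sites), the glutamate dehydrogenase gene Glud1 (13 sites, mean 1.75% ± 0.78), Glul, the glutamine synthetase of astrocytes (6 sites, 1.60% ± 0.50), and the mitochondrial aspartate aminotransferase gene Got2 (2 sites, 9.11% ± 3.44). The glutamine transporter gene Slc38a3 also had 2 sites, at a mean of 1.27% ± 0.28. The glutaminase gene Gls2 had 0 sites, as had Got1, Atp1b2, Slc17a6, Slc17a8, Slc25a22 and Slc38a5. Of 14 genes for neutral amino acid and serine handling, 8 had a site (57.1%), led by the serine synthesis gene Psat1 (13 sites, 3.46% ± 2.85), the large neutral amino acid transporter gene Slc7a5 (9 sites, 3.23% ± 1.67), Slc6a20a (5 sites, 4.86% ± 2.95) and Slc3a2, the heavy chain partner of Slc7a5 (3 sites, 1.38% ± 0.23). Of 10 genes for proteins known to bind or modify the transporters, 9 had a site, led by the ubiquitin ligase gene Nedd4 (10 sites, 3.94% ± 2.14). After it came Arl6ip1 (4 sites, 7.19% ± 7.15), Sept2 (3 sites, 2.33% ± 1.46) and Arhgef11 (2 sites, 3.68% ± 0.13), and Arl6ip5 had 0 sites. Of all protein-coding genes 28.3% had a site, expressed in cortex or not, so a list of brain genes is not set against brain genes by that share.

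**Figure D4:**
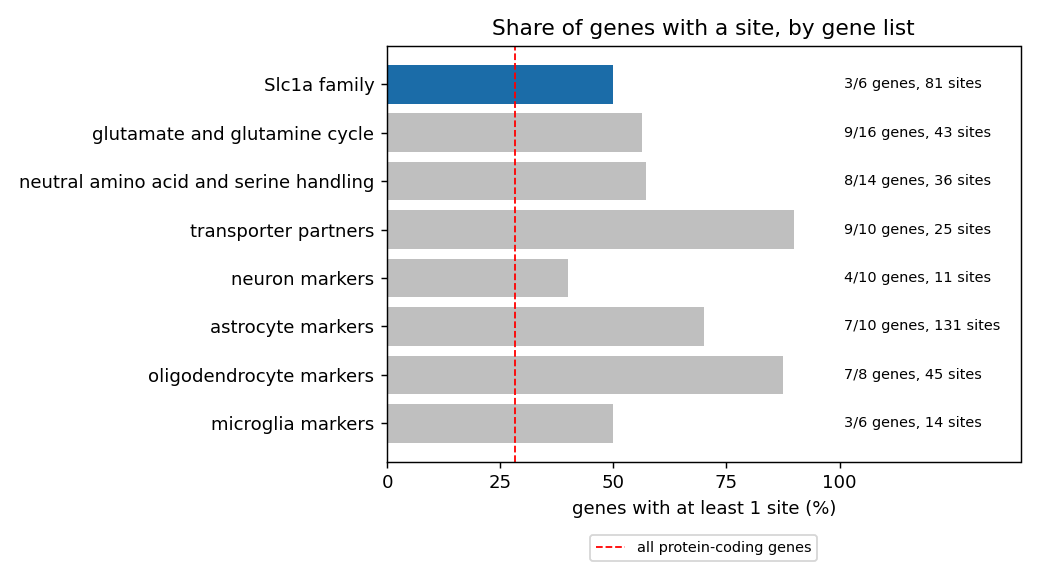
Share of genes with at least 1 site (%) in the Slc1a family (blue) and in each gene list (grey); the dashed line marks the 28.3% of all protein-coding genes. The family has 3 of 6 genes and 81 sites, the astrocyte markers 7 of 10 genes and 131 sites, and the neuron markers 4 of 10 genes and 11 sites.

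Markers of glia carried sites in these NeuN-sorted nuclei beside the glial transporters. Of 10 astrocyte markers, 7 had a site, with 131 sites in all and gene means of 1.60% to 4.76%. They were Aqp4 (45 sites), Kcnj10 (36), Gja1 (33), Sox9 (8), Glul (6), S100b (2) and Aldh1l1 (1), while Aldoc, Apoe and Gfap had 0. Of 10 neuron markers, 4 had a site, with 11 sites in all and gene means of 1.82% to 11.0%. They were Map2 (5), Syt1 (4), Slc17a7 (1) and Snap25 (1), while Gad1, Gad2, Nefl, Rbfox3, Stmn2 and Tubb3 had 0. Of 8 oligodendrocyte markers 7 had a site (45 sites, gene means of 1.32% to 3.67%), with 0 in Mag, and of 6 microglia markers 3 had a site (14 sites, 2.28% to 8.06%), with 0 in Aif1, C1qa and P2ry12. The part of glial RNA in the site counts of Slc1a2, Slc1a3 and Slc1a4 was not tested. In such bulk libraries fewer cells of a type and less RNA per cell cannot be told apart.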

How the data were processed

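Data of 2 libraries from NeuN-sorted cortical nuclei were analysed from 1 deposited table of sites. The authors deposited each site's editing level as a fraction (printed here as a percentage), with 1 value for both libraries. Per the series' design text, sites were called with Bullseye; STAR 2.7.5 and the build mm10 are named in the submitters' processing notes. How the values of both libraries became 1 level, which control was used and how many reads a site needed is not given in the sources used here. For the RNA, the molecule label (polyA RNA) and the library kit in the protocol (total RNA, stranded) differ.

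Of 6929 gene names, 6456 matched RefSeq genes of GRCm38.p6 (6439 by symbol, 17 by a synonym of 1 gene). Positions are 1-based; distances run to the end of the gene's span on the strand of the site. Neighbour distances are between sites of 1 gene. Summaries were computed with pandas 2.3.3 and scipy 1.17.1, after the functions had been tested on simulated data. With 1 pooled list there is no test between samples, and sites or genes were not used as replicates. Members, gene lists, and the rules for named genes (up to 4 per list by site count, the 5 highest sites per member, the 5 most similar genes) were chosen with earlier results of these data known. Some genes first listed for the glutamate and glutamine cycle are not reported here. Minimum levels, end windows and neighbour distances were varied. Exon assignment and the sequence around other sites were not analysed here.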

Additional observations from a re-analysis of the deposited data

How the results depend on the processing

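Low levels decide the site counts. With sites of at least 2% the members kept 25 of 81 sites (9 in Slc1a2, 7 in Slc1a3 and 9 in Slc1a4), and with sites of at least 5% they kept 4 (1, 0 and 3 in the same order). Counting bases within 50 nt as 1 site gave 40 sites, and within 10 nt 69. The median level was 2.49% over sites of at least 2%, and the mean of the 3 gene means was 2.42%, which the 22.8% site of Slc1a4 enters, against the median of 1.51% as reported. The share near the 3′ end was 33.3% within 1 kb and 95.1% within 10 kb, where fewer or more bases count. The share with a neighbour was 76.5% within 50 nt, 50.6% within 20 nt and, over sites of at least 2%, 44% within 100 nt, since fewer bases or sites count. The 10 kb window, the ranks and other genes' shares at 2%, and a median without the 3 highest sites of each gene (1.46%) were chosen after seeing the data. No paired analysis was possible because the list has 1 value per site for both libraries. Depth limits all of these values and is unknown.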

Other observations

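The G before the edited C in the 5′ site of Slc1a4 was also the most frequent base before listed sites near transcript starts. Of 91 listed sites within the first 50 transcribed bases of a RefSeq start window of their own gene, 51 (56.0%) had a G before the edited C and 9 (9.89%) had an A. Of all C in those bases over all windows, 32.3% had a G and 17.0% an A before them.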
